A study of Mus musculus with 2 samples.

Results

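T cells bearing NK receptors are lymphocytes that carry the T-cell antigen receptor together with surface receptors of natural killer (NK) cells. They were taken here from 2 single-cell libraries of LLC tumours, grown in mice lacking Dusp2 (KO) and in wild-type mice (WT), by their raw counts of unique molecular identifiers (UMIs, 1 per captured RNA molecule). A barcode counted as a cell if it held 200 or more genes and if mitochondrial genes gave no more than 20% of its UMIs. A cell was a member with at least 2 UMIs of Cd3d and Cd3e together, which encode signalling chains of the T-cell receptor complex, and at least 2 UMIs of the NK receptors Ncr1, Klrb1c, Klre1 and Klra7 together. It also had no UMI of Cd8b1, Cd4, Foxp3 or Cd79a and fewer than 5 of Lyz2. Members were thus chosen by their own UMI counts of these genes. The rule found 91 of 12636 kept KO cells and 187 of 9765 kept WT cells, 278 of 22401 in all. They are called NK-receptor T cells below.

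LLC is a Lewis lung carcinoma line of the mouse, and the cells are labelled as lymphocytes that infiltrated its tumours. Each genotype is 1 library of the 10x Genomics 3' kit. The label for the molecule reads polyA RNA for the KO library and total RNA for the WT library. The sources used here do not state any pooling of animals, the sort, or the deleted stretch of Dusp2. As each genotype is a single library, no test was possible, and genotype cannot be told apart from animal, tumour or library preparation. All intervals, in brackets after a value, are 95% intervals of counting error in these libraries. Ratios are the KO level over the WT level on a log2 scale, and 2-fold is a log2 ratio of 1 or -1.

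Conventional T cells recognise peptides through a rearranged receptor, whereas NK cells rely on germline-encoded activating and inhibitory receptors. Several kinds of T cell share NK receptors, among them invariant NKT cells, gamma-delta T cells and innate-like alpha-beta T cells without CD4 and CD8. In mice the Ly49 receptors encoded by the Klra genes mostly bind MHC class I, and the adaptor FcRgamma, encoded by Fcer1g, passes on signals of Fc and natural cytotoxicity receptors. The loci of 3 of the receptors in the rule lie in the NK gene complex on chromosome 6, Klrb1c at chr6:128778485-128789215, Klre1 at chr6:129577905-129585827 and Klra7 at chr6:130218605-130233322 (mm10, GENCODE M21), while Ncr1 is at chr7:4337724-4345164.

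The KO library holds 12744 barcodes and 101532711 UMIs, and the WT library 9890 barcodes and 113873249 UMIs. Among kept cells the median was 4796 UMIs in the KO library and 8598 in the WT library, but NK-receptor T cells were of similar depth, with medians of 5841 UMIs in KO cells and 6107 in WT cells. They carried 547539 UMIs in the KO library and 1208534 in the WT library. The libraries share 31 barcode sequences. Doublets were not removed. The 10% of cells with the highest doublet scores held 6 of the 91 KO members and 5 of the 187 WT members.

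Fewer WT members stood at the limit of the Cd3 sum than at that of the receptor sum, 4.81% against 20.3%. In KO members these shares were close, at 15.4% and 17.6%. The sum of Cd3d and Cd3e had a median of 5 UMIs in KO cells and 6 in WT cells, and it stood at the limit of 2 in 14 KO and 9 WT members. The receptor sum had a median of 4 UMIs in KO cells and 5 in WT cells, and it stood at 2 in 16 KO and 38 WT members. Just outside the rule, with 1 receptor UMI, were 37 KO and 40 WT cells, of which 56.8% and 72.5% held Fcer1g. With 1 Cd3 UMI were 21 KO and 42 WT cells, and 28.6% of these in the KO library and 19.0% in the WT library held Cd3g, a CD3 chain outside the rule.

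Free RNA and doublets can put single UMIs into cells that do not express a gene. Macrophages with at least 5 UMIs of C1qa and C1qb served as a class that should lack both sides of the rule, at medians of 6789 UMIs in KO and 9996 in WT cells. Of them, 0.408% in the KO library (6 of 1469) and 0.314% in the WT library (10 of 3187) met both the Cd3 and the receptor minimum. The Cd3 minimum, whatever the receptors, was met by 5.04% in the KO library (74 cells) and 1.44% in the WT library (46 cells). For the receptor minimum, whatever the Cd3 sum, the shares were 0.749% in the KO library and 0.722% in the WT library. These counts also show that a library labelled as lymphocytes held many macrophages. Among all kept cells, 218 in the KO library and 387 in the WT library met both minimums. Among the terms that leave cells out, Cd8b1 covered the most of these, with a UMI in 99 KO and 182 WT cells. Cd79a had a UMI in 35 KO cells and 1 WT cell. Some cells fall under more than 1 term, so these counts overlap. Without any term on Cd79a and Lyz2 the rule would keep 107 KO and 199 WT cells.

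The genes the rule used are given as a description only. Cd3d stood at 608 CPM (a gene's UMIs scaled to a common total) in KO and 626 CPM in WT members, and Cd3e at 343 CPM in KO and 402 CPM in WT members. Klra7, the Ly49G receptor, was detected in 57 KO members and 132 WT members, and Klre1, an inhibitory lectin-like receptor, in 66 KO and 123 WT members. Klrb1c, the NK1.1 antigen, was detected in 32 KO and 73 WT members. Ncr1, the activating receptor NKp46, was the rarest, with a UMI in 10 KO and 12 WT members. At least 2 of the 4 receptors were found in 60.4% of KO and 63.1% of WT members.

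Neighbouring gates that differ from the rule in a few terms were used to place these cells. NK cells had the same receptor minimum but no UMI of Cd3d or Cd3e (202 KO and 511 WT cells). Receptor-negative T cells met every other term but had no UMI of the 4 receptors (510 KO and 268 WT cells). CD8 T cells had Cd8b1 and no UMI of the 4 receptors (454 KO and 177 WT cells). Members were deeper than these classes, with medians of 5841 UMIs in KO and 6107 in WT cells. The medians were 4154 in KO and 5288 in WT NK cells, and 3649.5 in KO and 4855 in WT receptor-negative T cells. In CD8 T cells they were 4858.5 in KO and 4883 in WT cells. Shares of cells with a UMI are thus not at equal depth between classes unless thinning is named. As all classes were cut from the same counts, differences between them are described and not tested. They count as 2-fold only where the ratio passed 2-fold the same way in both libraries.

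The T-cell label held in genes outside the rule. Cd3g, the CD3 gamma chain, was detected in 82.4% of KO and 91.4% of WT NK-receptor T cells, against 8.42% of KO and 4.50% of WT NK cells. Trac, the constant region of the alpha chain, stood at 287 CPM (244 to 335) in KO and 487 CPM (448 to 528) in WT members, against 14.4 CPM in KO and 24.8 CPM in WT NK cells. Bcl11b, a transcription factor that fixes T-lineage identity, stood at 102 CPM in KO and 91.8 CPM in WT members, against 5.39 CPM in KO and 4.63 CPM in WT NK cells. These genes separate the cells from NK cells in both libraries. Trbc1 does so less, since it was also detected in 73.8% of KO and 84.9% of WT NK cells. At least 1 of Trac, Trbc1, Trbc2 and Trdc was detected in 98.9% of KO and 99.5% of WT members. The same share is not given for NK cells, most of which held Trbc1, so it does not by itself separate the classes. Of 5455 genes compared with NK cells, 52 (0.953%) were at least 2-fold higher in NK-receptor T cells in both libraries and 114 (2.09%) at least 2-fold lower. From the list of T-cell receptor and signalling genes 15 of 17 compared were higher than in NK cells in both libraries, 7 of them at least 2-fold, and none was lower in both. Over all 5455 genes 1668 were higher in both libraries and 1854 lower.

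T-lineage genes nevertheless stood below their level in CD8 T cells. Themis, a signalling protein of thymic selection, stood at 53.0 CPM in KO and 72.8 CPM in WT members, against 425 CPM in KO and 592 CPM in WT CD8 T cells. Lat, the adaptor below the T-cell receptor, stood at 82.2 CPM in KO and 82.7 CPM in WT members, against 324 CPM in KO and 288 CPM in WT CD8 T cells. Cd5, an inhibitor of T-cell receptor signals, stood at 27.4 CPM in KO and 60.4 CPM in WT members, against 113 CPM in KO and 181 CPM in WT CD8 T cells. All 3 genes were lower in members than in CD8 T cells in both libraries. Of 5468 genes compared with CD8 T cells, 95 (1.74%) were at least 2-fold higher in members in both libraries and 81 (1.48%) at least 2-fold lower. Of 18 T-cell receptor and signalling genes 12 were lower than in CD8 T cells in both libraries, 5 of them at least 2-fold, and 1 was higher. Over all 5468 genes 1639 were lower in both libraries and 1707 higher.

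**Figure D1:**
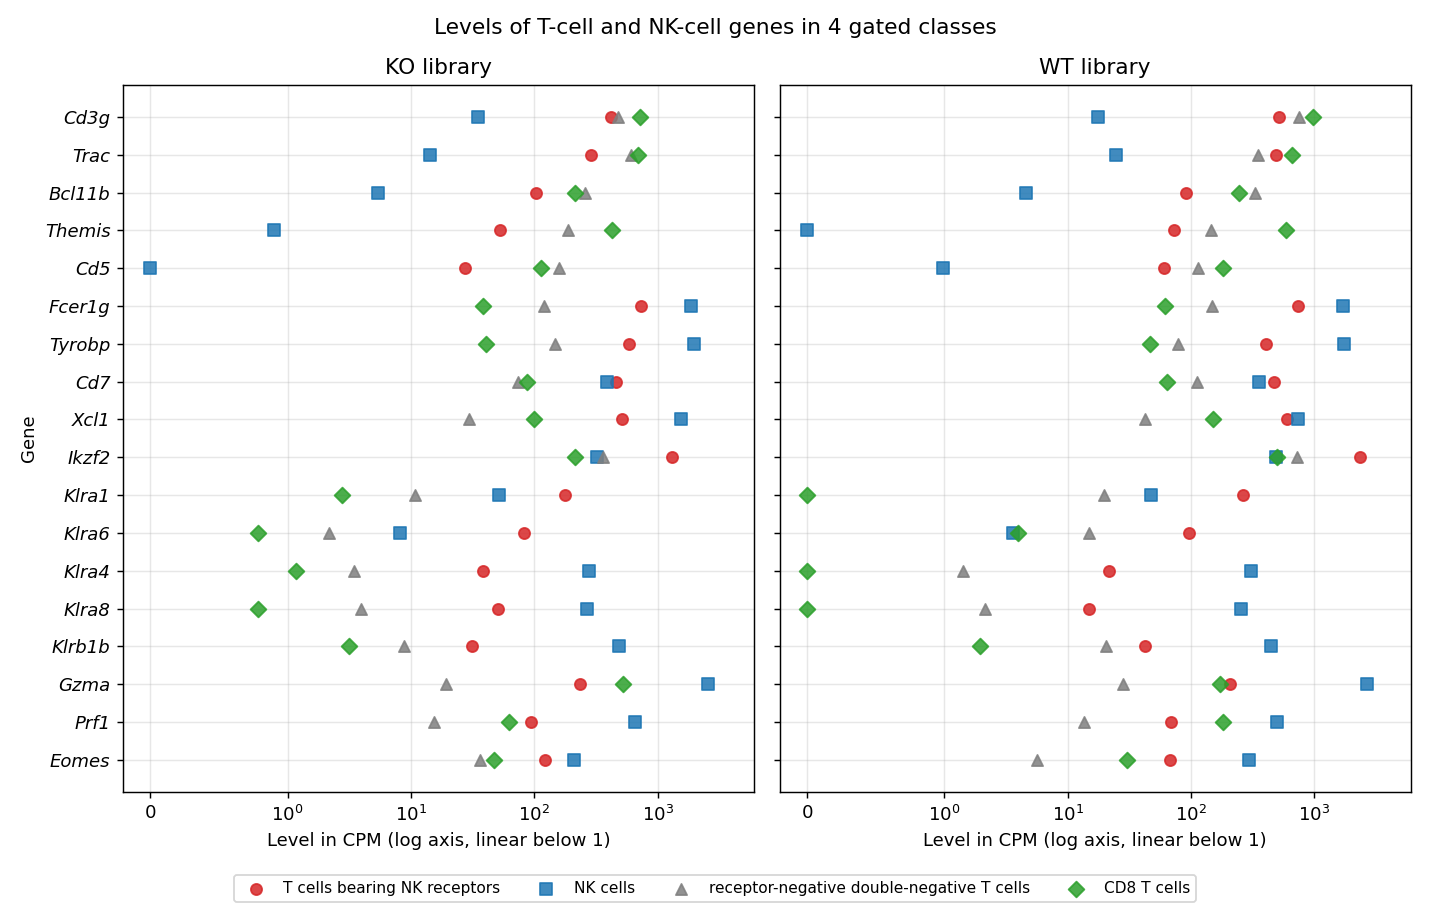
Level of 18 T-cell and NK-cell genes (CPM, log axis that is linear below 1) in NK-receptor T cells, NK cells, receptor-negative T cells and CD8 T cells, with the KO library on the left and the WT library on the right, 1 point per class and library. Trac, Bcl11b, Themis and Cd5 of NK-receptor T cells lie far above NK cells, Fcer1g and Tyrobp lie between NK cells and the other T cells, and Ikzf2, Klra1 and Klra6 lie above all 3 neighbouring classes.

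Fcer1g, at chr1:171229572-171234365, stood far above its level in CD8 T cells. It was detected in 80.2% of KO and 84.5% of WT NK-receptor T cells, at 727 CPM (657 to 802) in KO and 736 CPM (688 to 786) in WT cells. In CD8 T cells the level was 38.4 CPM in KO and 61.8 CPM in WT cells, and in NK cells 1862 CPM in KO and 1708 CPM in WT cells. Members were thus below NK cells in both libraries. With each cell thinned to 2000 UMIs, Fcer1g was still detected in 58.1% of KO and 70.1% of WT members, against 5.81% of KO and 13.8% of WT CD8 T cells. Macrophages also express it strongly, at 2691 CPM in KO and 2636 CPM in WT cells. The part of free RNA and of low expression in the CD8 T-cell share was not tested. The related adaptor Tyrobp, or DAP12, stood at 588 CPM in KO and 406 CPM in WT members, against 40.7 CPM in KO and 46.1 CPM in WT CD8 T cells. The Src-family kinase Lyn, better known from B and myeloid cells, stood at 225 CPM in KO and 306 CPM in WT members, against 20 CPM in KO and 77.5 CPM in WT CD8 T cells.

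Ikzf2 and 2 Ly49 receptors outside the rule stood above their levels in all neighbours. The receptor-negative and CD8 T cells among these were chosen to hold no UMI of the rule's receptors. T cells with those receptors and Cd8b1 are not among the classes compared. Of 7 Ly49 genes outside the rule that could be compared with NK cells, 2 were higher in members in both libraries and 5 lower. The counts over all 5455 genes were 1668 and 1854. Ikzf2, which encodes the transcription factor Helios, lies at chr1:69531214-69687245 and stood at 1313 CPM (1219 to 1413) in KO and 2319 CPM (2234 to 2407) in WT members. It reached 319 CPM in KO and 489 CPM in WT NK cells, and 359 CPM in KO and 726 CPM in WT receptor-negative T cells. In macrophages 5.26% of KO and 4.93% of WT cells held a UMI, against 85.7% of KO and 90.9% of WT members. Foxp3-expressing regulatory T cells, which also use Helios, were left out by the rule. Klra1, or Ly49A, stood at 175 CPM in KO and 264 CPM in WT members, against 51.2 CPM in KO and 47.3 CPM in WT NK cells. Klra6, or Ly49F, stood at 82.2 CPM in KO and 96.8 CPM in WT members, against 8.09 CPM in KO and 3.64 CPM in WT NK cells. Among the lower ones, Klra4, or Ly49D, stood at 38.4 CPM in KO and 21.5 CPM in WT members, against 275 CPM in KO and 305 CPM in WT NK cells. Klra8, or Ly49H, was found in 4 KO and 6 WT members only. The sources used here do not say how reads shared by near-identical Klra copies were counted, and the split among Klra genes is uncertain.

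NK identity genes were present but below NK cells. All 18 genes of that list that could be compared were lower in NK-receptor T cells than in NK cells in both libraries, 9 of them at least 2-fold, where 1854 of all 5455 genes were lower in both. Of 5510 genes compared with receptor-negative T cells, 106 (1.92%) were at least 2-fold higher in members in both libraries and 131 (2.38%) at least 2-fold lower. NK identity genes were higher than in that class in both libraries for 10 of 11, 7 at least 2-fold, where 1592 of all 5510 genes were. Against CD8 T cells 5 of 11 were higher in both libraries, 2 of them at least 2-fold, and 1 was lower. Over all 5468 genes compared with CD8 T cells 1707 were higher in both libraries and 1639 lower. Eomes, a T-box factor of NK and memory T cells, was detected in 33.0% of KO and 22.5% of WT members, against 46.5% of KO and 64.8% of WT NK cells. Klrb1b, an inhibitory receptor of NK cells, stood at 31.0 CPM in KO and 42.2 CPM in WT members, against 487 CPM in KO and 447 CPM in WT NK cells. Car2, a carbonic anhydrase, stood at 199 CPM in KO and 131 CPM in WT members, against 8.70 CPM in KO and 7.09 CPM in WT receptor-negative T cells. Cd7, a surface protein of T and NK cells, was close to its NK level, at 455 CPM in KO and 468 CPM in WT members, against 385 CPM in KO and 352 CPM in WT NK cells.

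Granule genes stood below NK cells and above receptor-negative T cells. All 14 granule genes compared were lower than in NK cells in both libraries, 7 at least 2-fold, beside 1854 and 114 of all 5455 genes. Gzma, a granule protease, was detected in 17.6% of KO and 16% of WT members, against 71.8% of KO and 77.5% of WT NK cells. Prf1, the pore-forming perforin, stood at 93.1 CPM in KO and 68.7 CPM in WT members, against 653 CPM in KO and 499 CPM in WT NK cells. Gzmb stood at 216 CPM (178 to 258) in KO and 359.9 CPM (327 to 395) in WT members, against 596 CPM in KO and 744 CPM in WT CD8 T cells. Against receptor-negative T cells 10 of 11 granule genes were higher in both libraries, 7 at least 2-fold, beside 1592 and 106 of all 5510 genes. Against CD8 T cells 4 of 14 were higher in both libraries and 4 lower, 1 and 2 of them at least 2-fold. Over all 5468 genes 1707 were higher and 1639 lower, 95 and 81 of them at least 2-fold.

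Chemokine and homing genes took no common direction against NK cells or CD8 T cells. Of 7 effector cytokine and chemokine genes 3 were higher and 3 lower in both libraries than in NK cells. Against CD8 T cells 1 of 7 was higher in both libraries and 1 lower. Xcl1, which attracts cross-presenting dendritic cells, stood at 513 CPM in KO and 594 CPM in WT members, against 98.7 CPM in KO and 150.1 CPM in WT CD8 T cells. Ccl5, a chemokine of activated and memory lymphocytes, stood at 5724 CPM in KO and 3940.3 CPM in WT members, against 1869 CPM in KO and 4476 CPM in WT CD8 T cells. Il2rb, the receptor chain shared by IL-2 and IL-15, was detected in 96.7% of KO and 97.3% of WT members. The Xcl1 order held in both libraries, whereas Ccl5 was above CD8 T cells in the KO library and below them in the WT library. Of 18 homing genes 7 were higher and 5 lower in both libraries than in NK cells, beside 1668 and 1854 of all 5455 genes. Against CD8 T cells 6 were higher and 7 lower, beside 1707 and 1639 of all 5468. Against receptor-negative T cells 8 were higher and 3 lower, beside 1592 and 1667 of all 5510. S1pr1, Cxcr6 and Ly6c2 are each set against 1 class here. S1pr1, the receptor for exit from tissue, stood at 108 CPM in KO and 87.7 CPM in WT members, against 11.7 CPM in KO and 25.8 CPM in WT NK cells. Cxcr6, a chemokine receptor of tissue-resident lymphocytes, stood at 71.2 CPM in KO and 91.8 CPM in WT members, against 348 CPM in KO and 558 CPM in WT CD8 T cells. Ly6c2, a surface marker of memory-type CD8 T cells and monocytes, stood at 687 CPM in KO and 659 CPM in WT members, against 78.3 CPM in KO and 189 CPM in WT receptor-negative T cells.

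Cells that lay outside the rule by a single receptor UMI already came near the members in their share with Ikzf2. For Cd7 they came less near, above all in the KO library. In T cells without Cd4, Cd8b1 and Foxp3, Ikzf2 was detected in 32.2% of KO cells at 0 receptor UMIs, 73.0% at 1, 87.5% at 2 and 85.3% at 3 or more. The same steps gave 56.0%, 87.5%, 94.7% and 89.9% in WT cells. For Cd7 the shares were 17.3%, 40.5%, 81.3% and 74.7% in KO cells, and 18.3%, 65.0%, 73.7% and 81.9% in WT cells. The step from 0 to 1 receptor UMI was the widest for Ikzf2 in both libraries. For Cd7 that held in the WT library, while in the KO library the widest step was from 1 to 2 UMIs, into a group of 16 cells.

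**Figure D2:**
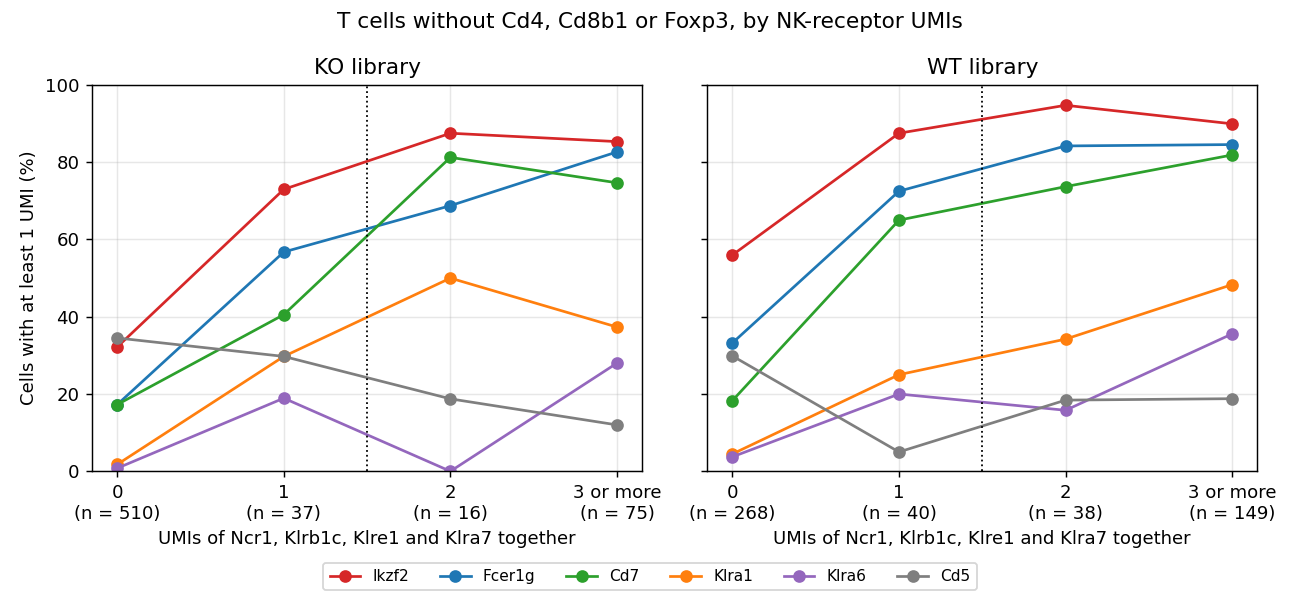
Share of T cells without Cd4, Cd8b1 or Foxp3 that hold at least 1 UMI of Ikzf2, Fcer1g, Cd7, Klra1, Klra6 or Cd5 (%), by their summed UMIs of Ncr1, Klrb1c, Klre1 and Klra7, with the KO library on the left and the WT library on the right. The dotted line marks the limit of the rule, and Ikzf2 and Fcer1g are already near their member shares in cells with 1 receptor UMI in the WT library.

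The T-cell receptor chains split the cells. Trac without Trdc, the delta-chain constant region, was detected in 47 KO and 142 WT members, and Trdc without Trac in 21 KO and 27 WT members. Both were found in 8 KO and 5 WT members, and neither in 15 KO and 13 WT members. Cells with Trdc and no Trac shared the adaptor and Helios pattern, with Fcer1g in 85.7% of KO and 88.9% of WT cells and Ikzf2 in 81.0% of KO and 92.6% of WT cells. Trgc2, a gamma-chain constant region, was found in 52.4% of these KO cells and 48.1% of these WT cells. Of all Cd3-positive cells with a Trdc UMI, 29 of 97 in the KO library and 32 of 195 in the WT library were NK-receptor T cells. Trdc was also detected in 15.8% of KO and 16.4% of WT NK cells, so a Trdc UMI alone does not show a gamma-delta receptor. Il23r, Il17a and Blk, which mark IL-17-producing gamma-delta T cells, had no UMI in members of either library, while Il23r stood at 67.8 CPM in KO and 591 CPM in WT receptor-negative T cells. The segments Trav11 and Traj18 of the invariant NKT receptor also had no UMI, but a 3' assay seldom reads variable segments. Zbtb16, or PLZF, the factor of invariant NKT cells, was detected in 12.1% of KO and 17.6% of WT members.

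Cd6 and Cd8a were found more often, and Klra1 less often, in members without a Fcer1g UMI (18 KO and 29 WT cells). Cd6, a T-cell surface receptor, was found in 33.3% of KO and 51.7% of WT members without Fcer1g, against 9.59% of KO and 21.5% of WT members with it. Cd8a was found in 22.2% of KO and 41.4% of WT members without Fcer1g, against 5.48% of KO and 9.49% of WT members with it. Klra1 ran the other way, in 11.1% of KO and 24.1% of WT members without Fcer1g, against 46.6% of KO and 49.4% of WT members with it. The same order stood in both libraries for these 3 genes. Members with Klra7 (57 KO and 132 WT cells) had Ikzf2 at 1758 CPM in KO and 2700.0 CPM in WT cells, against 644 CPM in KO and 1402 CPM in WT members without it. Gzmb was found in 21.1% of KO and 29.5% of WT members with Klra7, against 38.2% of KO and 52.7% of WT members without it. These subsets were formed after their values were seen and hold few cells.

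Dusp2, the deleted gene at chr2:127336159-127338376, encodes a nuclear phosphatase of MAP kinases and checks the labels. NK-receptor T cells held 2 UMIs of it in the KO library and 737 in the WT library, 3.65 CPM (0.442 to 13.2) in KO and 609.8 CPM (567 to 655) in WT cells. It was detected in 2.20% of KO and 85.0% of WT members, a log2 ratio of -7.38 (-10.43 to -5.53). The genotype labels thus held in these cells.

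NK-receptor T cells were a smaller share of the KO library. They made up 0.720% of kept KO cells (Clopper-Pearson interval 0.580 to 0.883) and 1.92% of kept WT cells (1.65 to 2.21), a log2 ratio of -1.41 (-1.77 to -1.05). The KO library holds many more B cells, and among cells without Cd79a the shares were 1.31% in KO and 1.96% in WT, a log2 ratio of -0.58 (-0.94 to -0.23). Among cells with the NK-receptor minimum they made up 18.2% in KO and 19.0% in WT, a log2 ratio of -0.06 (-0.39 to 0.26). Among cells with the Cd3 minimum they made up 4.07% in KO and 14.6% in WT. The size of the difference therefore depends on the denominator, and against other receptor-bearing cells the interval includes 0. Where no Lyz2 UMI at all was allowed, 62 KO and 76 WT cells were left and the ratio among kept cells was -0.67. The sources used here do not state how cells were enriched, and the part of enrichment in these shares was not tested.

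Between the libraries, 5966 genes had at least 20 UMIs in 1 of them and a mean of at least 20 CPM in NK-receptor T cells. Of these, 74 (1.24%) were at least 2-fold higher in KO cells and 223 (3.74%) at least 2-fold lower, and the median log2 ratio was -0.07, with 2600 genes higher and 3366 lower. The genes named next are those whose intervals lie farthest from 0, 12 in each direction. Ratios of named genes were recomputed under up to 14 alternatives to the rule, the cells or the scaling. Where the interval came to include 0 or the ratio moved widely, the range over these alternatives is given.

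Of the 12 higher genes, 7 had most of their KO UMIs in 1 cell. Gzmf, a granzyme of strongly activated killer cells, had 276 UMIs in 6 KO members and 11 UMIs in 3 WT members, but 252 of the KO UMIs came from 1 cell. Without the cell with most UMIs in each library its log2 ratio was 3.17 (1.85 to 4.75), on 24 KO and 6 WT UMIs, against 5.79 (4.93 to 6.81) with all cells, and it stayed above 0 over the alternatives, at 1.61 to 8.41. Gzmd had 60 UMIs in 2 KO members and 1 in WT members, with 57 from 1 cell, and without the top cells it was left with 3 KO and 0 WT UMIs. Reads of Gzmd, Gzme, Gzmf and Gzmg, which are near-identical, may have been split among them.

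Spp1 (osteopontin), Serpine2 (a protease inhibitor) and Hspa1b (a heat-shock protein) fell short of 2-fold without the top cells, with ratios of 0.88, 0.42 and 0.76, against 1.94, 2.46 and 1.65 with all cells. Areg (amphiregulin) and Klra8 stayed past 2-fold, at 1.95 (-0.03 to 4.17) and 1.15 (-0.20 to 2.49), against 2.41 and 1.78 with all cells, but their intervals then included 0. Over the alternatives Spp1 ranged from -0.06 to 3.17, Serpine2 from -1.32 to 3.63, Hspa1b from -0.42 to 2.30, Areg from -0.65 to 3.83 and Klra8 from 0.79 to 2.64.

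In the other 5 higher genes no KO member held most of the UMIs. Ccr7, the homing receptor for lymph nodes, had 45 UMIs in 21 KO members and 30 UMIs in 19 WT members, a log2 ratio of 1.73 (1.03 to 2.44). Fancl, a ubiquitin ligase of the Fanconi anaemia pathway, had 28 UMIs in 23 KO members and 14 UMIs in 14 WT members, a log2 ratio of 2.14 (1.17 to 3.18). Peli2 and Aspscr1 gave 1.98 (0.98 to 3.04) and 1.90 (0.85 to 3.01). In cells that met the rule after thinning, the intervals of Ccr7 (0.91), Peli2 (0.82) and Aspscr1 (1.43) included 0, while that of Fancl stayed above 0 in all 13 alternatives that gave an interval. Rrm2, a subunit of ribonucleotide reductase, gave 2.14 (1.09 to 3.28) on 24 UMIs in 5 KO members and 12 in 5 WT members. It was 0.95 (-0.90 to 2.75) without the 10% of cells with the highest doublet scores, and had 0 KO and 5 WT UMIs without the 10% of members with most UMIs. In CD8 T cells Ccr7 stood at 458 CPM in KO and 256 CPM in WT cells, so the members stayed far below that class in both libraries.

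Among the 12 lower genes, 5 were lower in all neighbouring classes too, with every interval below 0. Cdk8, a kinase of the Mediator complex, had 118 UMIs in 61 KO members and 916 UMIs in 184 WT members, a log2 ratio of -1.81 (-2.10 to -1.54). Its ratio was -1.70 in NK cells, -1.66 in receptor-negative T cells and -1.58 in CD8 T cells. Cmss1 gave -1.35 (-1.44 to -1.25) in members, and -1.26, -1.41 and -1.46 in those 3 classes. Lars2, a mitochondrial leucyl-tRNA synthetase, gave -1.10 (-1.32 to -0.88) in members, and -0.88, -0.91 and -0.89 there. Mpp7, a scaffold protein, gave -1.20 (-1.52 to -0.89) in members, and -0.68, -2.17 and -1.70 there. Maml2, a coactivator of Notch signalling, gave -1.18 (-1.49 to -0.89) in members, and -0.28, -0.67 and -0.96 there. The classes share the same libraries.

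Inpp4b, a phosphatase of phosphoinositides, had ratios of opposite sign in members and receptor-negative T cells. It had 48 UMIs in 15 KO members and 281 UMIs in 88 WT members, a log2 ratio of -1.41 (-1.88 to -0.96). The ratio was -2.81 with Lyz2 at 0 and -0.72 with no term on Cd79a and Lyz2, the ends of its range. In the other classes it was 0.23 in NK cells, 0.09 in CD8 T cells and 1.56 in receptor-negative T cells. In that last class Trdc was detected in 8.43% of KO and 49.6% of WT cells, and the part of this make-up was not tested. Whether the ratios differ was not tested. Klra9, a Ly49 receptor, had 11 UMIs in 6 KO members and 115 UMIs in 34 WT members, a log2 ratio of -2.24 (-3.29 to -1.35), and it was -0.45 (-1.43 to 0.44) in the 36 KO and 78 WT cells that met the rule after thinning to 2000 UMIs. Rnf213, a ubiquitin ligase, and Igf1r, a growth factor receptor, gave -1.58 (-2.36 to -0.87) and -1.65 (-2.54 to -0.86), with ranges of -2.71 to -1.07 and -2.27 to -1.15.

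Some of the lower genes are better known from other cell types. Cxcl10, an interferon-induced chemokine, had 8 UMIs in 8 KO members and 161 UMIs in 29 WT members, a log2 ratio of -3.19 (-4.42 to -2.18). Il1b, a cytokine of myeloid cells, had 14 UMIs in 13 KO members and 119 UMIs in 58 WT members, with 54 of the WT UMIs in 1 cell, and gave -1.95 (-2.86 to -1.14) in all and -1.30 without the top cell of each library, with a range of -3.58 to -0.82. Col3a1, a collagen, had 4 UMIs in KO members and 49 in WT members, 36 of them in 1 cell, and gave -2.47 (-4.40 to -1.02) in all and -0.99 without the top cells, where the interval included 0. Its range was -2.48 to 0.50. In macrophages Cxcl10 stood at 295 CPM in KO and 245 CPM in WT cells, and Il1b at 2422 CPM in KO and 2560.2 CPM in WT cells. The summed level of 18 macrophage markers in NK-receptor T cells was 442 CPM in KO and 516 CPM in WT cells, with 2 of them at 0 in KO and 1 in WT cells. Their part in these ratios was not tested.

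**Figure D3:**
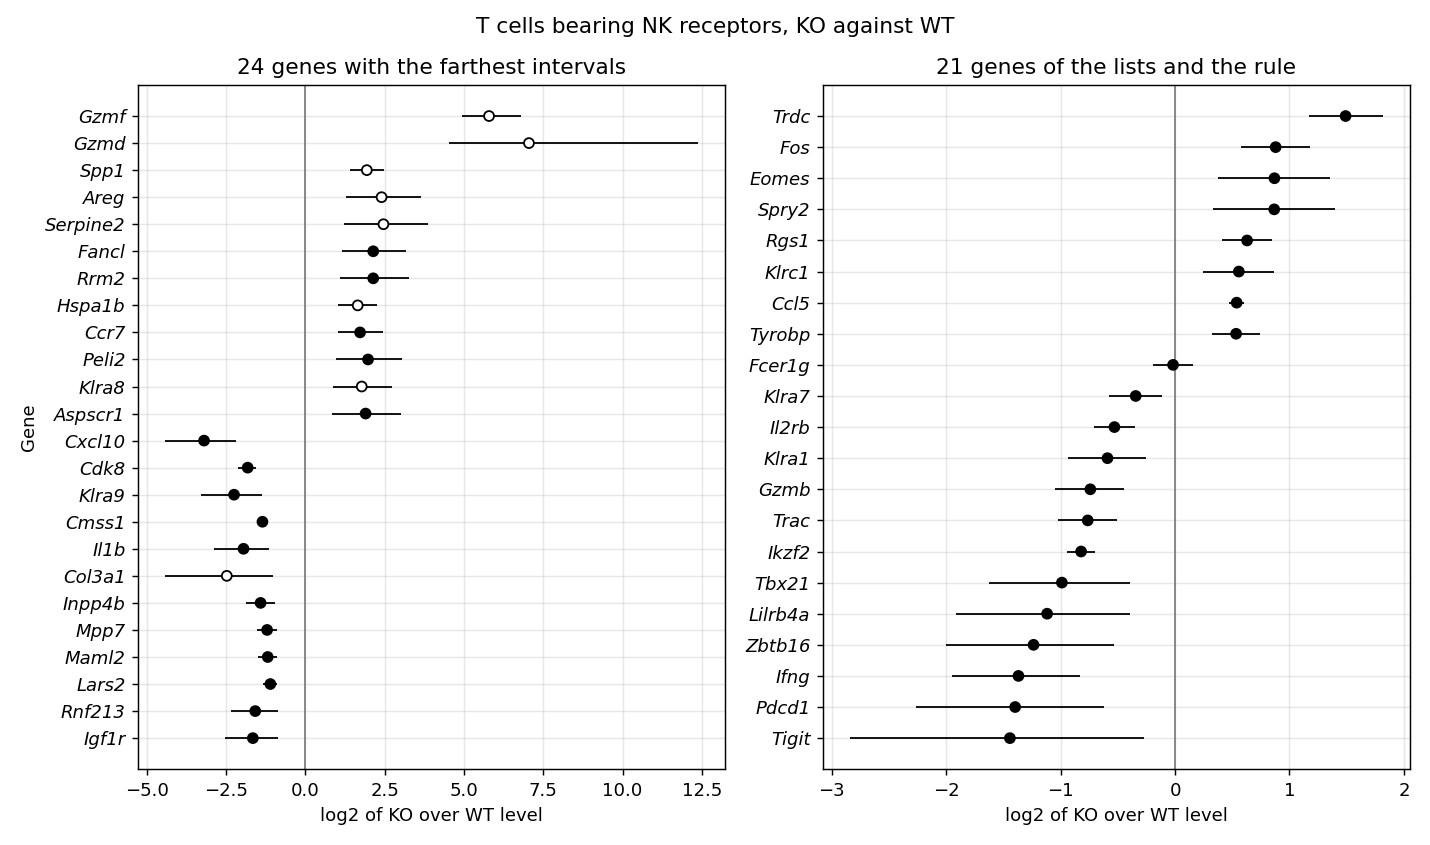
Log2 ratio of KO over WT level in NK-receptor T cells with its 95% counting interval, for the 24 genes with intervals farthest from 0 (left) and for 21 genes of the lists and the rule (right). Open points mark genes with most of their UMIs in 1 cell of the library where they are higher, among them Gzmf at 5.79, and in the right panel Trdc lies highest at 1.49 and Tigit lowest at -1.44.

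Delta-chain RNA was higher in KO members and alpha-chain RNA lower. Trdc, at chr14:54142851-54148868, stood at 332 CPM (286 to 384) in KO and 118 CPM (99.7 to 139) in WT cells, a log2 ratio of 1.49 (1.17 to 1.82). Trac, at chr14:54220521-54224206, stood at 287 CPM (244 to 335) in KO and 487 CPM (448 to 528) in WT cells, a log2 ratio of -0.76 (-1.03 to -0.51). All 5 measured genes of the gamma-delta list were higher in KO cells, with a median of 0.72, beside 2600 of all 5966 genes. The intervals of Trgc4, at 0.11 (-0.42 to 0.62), and Maf, at 0.33 (-0.65 to 1.27), included 0. Trdc and Trgc1 were at least 2-fold higher, beside 74 of all 5966 genes. Trgc1 passed 2-fold only narrowly, with an interval of 0.34 to 1.66. Over the alternatives Trgc1 ranged from 0.37 to 1.95, and its interval included 0 in 3 of them. In members without a Trdc UMI the median of the list was 0.11, and Trgc2 was lower in KO cells, at -1.13. In receptor-negative T cells Trdc ran the other way, at 102 CPM in KO and 1186 CPM in WT cells. Of the 22 T-cell receptor and signalling genes 6 were higher and 16 lower in KO members, with a median of -0.17 and only Cd5 past 2-fold, at -1.14 (-2.05 to -0.33). The interval of Cd5 included 0 in 2 alternatives, and its range was -1.81 to -0.79.

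Helios and T-bet RNA were lower in KO members and Eomes RNA was higher. Ikzf2 gave a log2 ratio of -0.82 (-0.94 to -0.70), and it was lower in the KO library in NK cells (-0.62), receptor-negative T cells (-1.02) and CD8 T cells (-1.21) as well. Tbx21, which encodes T-bet, stood at 53.0 CPM (35.5 to 76.1) in KO and 105 CPM (87.6 to 125) in WT members, a ratio of -0.99 (-1.62 to -0.40), or -0.56 (-1.30 to 0.13) in members without Trdc. Eomes stood at 122 CPM (94.8 to 155) in KO and 67.0 CPM (53.2 to 83.3) in WT members, a ratio of 0.87 (0.38 to 1.35), against -0.50 (-0.71 to -0.29) in NK cells. The ratio of Eomes in members ranged from 0.60 to 0.97 over the alternatives, and its interval included 0 in 1 of them. Zbtb16 gave -1.24 (-2.01 to -0.54) on 20 KO and 104 WT UMIs, and -2.15 in members without Trdc. Of 12 innate-like T and ILC1 genes 3 were higher and 9 lower in KO members, beside 2600 and 3366 of all 5966 genes. Their median was -0.37, and 1 was at least 2-fold higher and 2 lower, beside 74 and 223 of all genes. The higher one was Gpr183, an oxysterol receptor that guides migration, at 199 CPM in KO and 99.3 CPM in WT members, with an interval of 0.62 to 1.39 for the log2 ratio.

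Receptor and adaptor genes differed in both directions. Fcer1g gave -0.02 (-0.19 to 0.15), an interval that includes 0. Tyrobp gave 0.53 (0.33 to 0.74), although fewer KO members held a UMI (52.7% of KO and 63.1% of WT cells). Its ratio was 0.16 (-0.13 to 0.44) with Lyz2 at 0 and 0.02 (-0.16 to 0.19) with no term on Cd79a and Lyz2. Klra1 gave -0.59 (-0.93 to -0.26) and Klrc1, the NKG2A inhibitory receptor, 0.56 (0.25 to 0.86), and the interval of each included 0 in 1 alternative. Of 13 NK identity genes 6 were higher and 7 lower, beside 2600 and 3366 of all 5966 genes, and the median was -0.18. Osbpl3, a lipid-binding protein, was past 2-fold, at -1.17 (-1.87 to -0.53). Il2rb was lower in KO members, at -0.53 (-0.71 to -0.35), and Il12rb2, the IL-12 receptor chain, at -0.66 (-0.97 to -0.35).

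All 7 inhibitory receptors measured were lower in KO members, 3 of them at least 2-fold, with a median of -0.70. Over all 5966 genes 3366 were lower, 223 of them at least 2-fold, with a median of -0.07. The intervals of Ctla4, Cd96, Cd101 and Vsir included 0, and Vsir gave -0.09. Pdcd1, the PD-1 receptor, had 16 UMIs in KO and 93 in WT members, 29.2 CPM (16.7 to 47.5) in KO and 77.0 CPM (62.1 to 94.3) in WT cells, a log2 ratio of -1.40 (-2.26 to -0.62). It was detected in 7.69% of KO and 17.1% of WT members, and its ratio was -2.78 in members without Mki67 or Top2a. Tigit gave -1.44 (-2.84 to -0.28) on 7 KO and 42 WT UMIs and Lilrb4a gave -1.12 (-1.91 to -0.39). Their ranges were -2.29 to -0.56 and -1.14 to -0.55, with intervals that included 0 in 3 and 4 alternatives. The same list was lower in all 9 measured genes in CD8 T cells, with a median of -0.98, and in 7 of 8 in receptor-negative T cells, with a median of -1.23. In NK cells it was higher in 6 of 7, with a median of 0.24. In CD8 T cells Pdcd1 stood at 72.1 CPM in KO and 455 CPM in WT cells, so WT members carried a small part of the level of WT CD8 T cells.

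Effector genes showed no common direction over all members. Of 13 granule genes 6 were higher and 7 lower in KO members, beside 2600 and 3366 of all 5966 genes. Their median was -0.07, equal to that of all genes, and the 2 past 2-fold were Gzmd and Gzmf. In cells that met the rule after thinning the median of the list was 0.33, against -0.14 over all genes. Gzmc, another granzyme, gave -0.07 (-0.29 to 0.14) in all members, 1.06 without the top cells and 2.01 after thinning, with a range of -0.65 to 2.01. Gzma gave 0.18 (-0.14 to 0.49) in all members, 1.60 without Trdc and 1.34 after thinning, with a range of -0.08 to 1.60. These granule ratios therefore depended on which cells were counted. Gzmb gave -0.74 (-1.05 to -0.44) in members, 0.42 in cells that met the rule after thinning, and 0.96 (0.85 to 1.06) in NK cells. Ccl5 gave 0.54 (0.47 to 0.60) in members and -1.26 (-1.32 to -1.20) in CD8 T cells. Ifng, which encodes interferon gamma, stood at 60.3 CPM (41.5 to 84.6) in KO and 156 CPM (134 to 179) in WT members, a ratio of -1.37 (-1.95 to -0.83), but 69 of its 188 WT UMIs came from 1 cell. Without the top cell of each library the ratio was -1.10, and the shares with a UMI were 25.3% of KO and 28.9% of WT cells.

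Of 16 type I interferon response genes 14 were lower in KO members and 2 higher, beside 3366 and 2600 of all 5966 genes. None was past 2-fold in all members, and the median was -0.34 against -0.07 over all genes. Bst2, or tetherin, gave -0.91 (-1.42 to -0.43), Isg15, a ubiquitin-like modifier, -0.63 (-1.13 to -0.15) and Ifi27l2a -0.63 (-1.06 to -0.22). In cells that met the rule after thinning the median was -0.47, with Bst2 at 0.01 and Ifi27l2a at -3.76, on 4 KO and 128 WT UMIs. Isg15 was -1.59 without the top cells, -1.82 without the 10% of members with most UMIs and -0.14 (-0.70 to 0.38) without Trdc. In members without a Trdc UMI the median of the list was -0.05. Over other classes it was -0.33 in receptor-negative T cells and -0.35 in CD8 T cells, and 0.37 in NK cells.

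Immediate-early genes went both ways, and cell-cycle genes were mostly higher in KO members, though not in cells gated after thinning. Of 14 MAP kinase phosphatase and ERK feedback genes 8 were higher and 6 lower in KO members, none past 2-fold, with a median of 0.09. Fos, an AP-1 subunit, gave 0.88 (0.58 to 1.18) and Spry2, a feedback inhibitor of ERK signalling, 0.87 (0.33 to 1.39), while Fosb gave -0.79 (-1.45 to -0.18) and Dusp1, a related phosphatase, -0.29 (-0.70 to 0.11). Fos is also induced by tissue dissociation, and 8 of 10 heat-shock and dissociation genes were higher in KO members, with a median of 0.22. In members with Lyz2 at 0 the ratio of Fos was 0.00, and over the alternatives Spry2 ranged from 0.22 to 1.27. The part of dissociation was not tested. Of 17 cell-cycle genes 15 were higher in KO members and the other 2 lower. Their median was 0.46, and Rrm2 and Tyms, both of nucleotide synthesis, were past 2-fold. Over all 5966 genes 2600 were higher, 74 of them at least 2-fold. Tyms gave 1.02 (0.11 to 1.91), with a range of 0.67 to 2.55 and an interval that included 0 in 6 alternatives. The median of the cell-cycle list was 0.04 in members without a UMI of Mki67 or Top2a, and -0.15 in cells that met the rule after thinning. Mki67, a proliferation marker, was detected in 10 KO members (11%) and 10 WT members (5.35%). Its log2 ratio was 0.78 (0.10 to 1.45) in all members and -0.57 in cells that met the rule after thinning. The interval of Mki67 included 0 in 7 alternatives. Among 18 homing genes 10 were higher and 8 lower, with Klf2, which sustains S1pr1, at 0.45 (0.26 to 0.65).

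**Figure D4:**
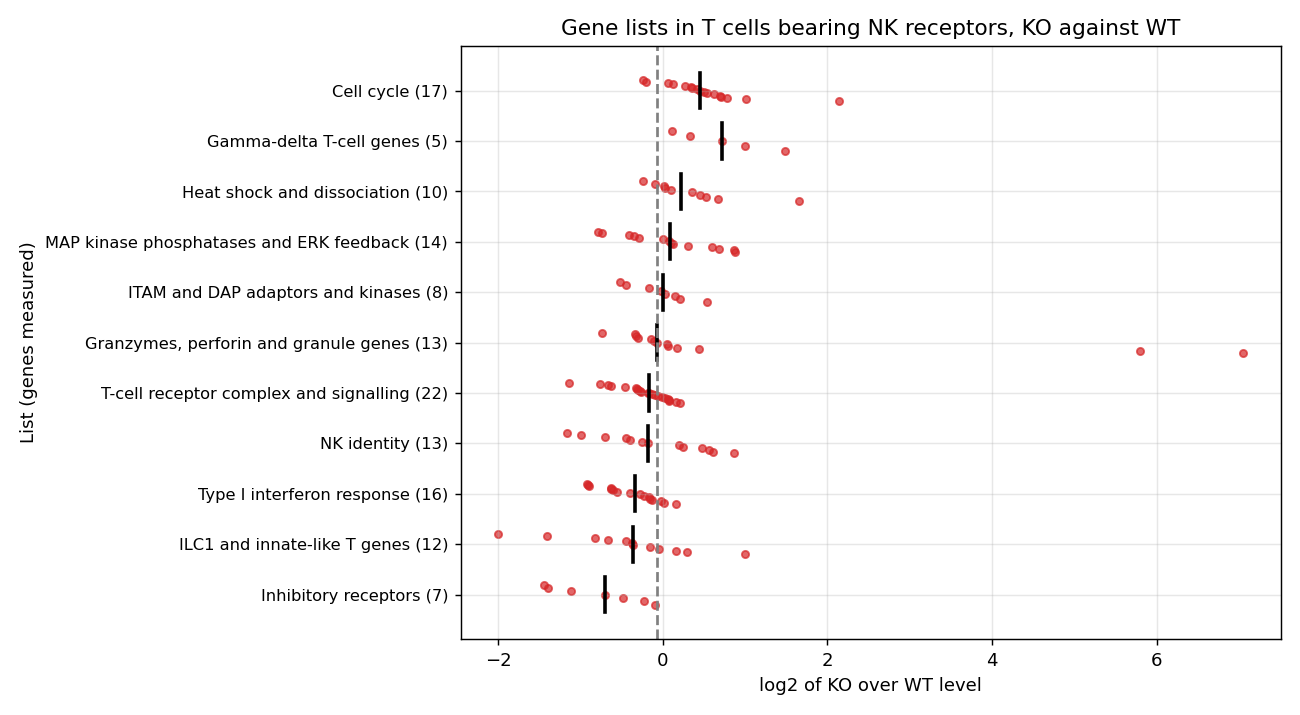
Log2 ratio of KO over WT level in NK-receptor T cells for each measured gene of 11 lists (points), with the list's median (bar) and the median of all 5966 genes, -0.07 (dashed line). All 7 inhibitory receptors lie below 0, all 5 gamma-delta genes above it, and granule genes centre on the median of all genes apart from Gzmd and Gzmf, which have most of their KO UMIs in 1 cell each.

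Kappa light-chain and J-chain RNA marked the KO library. Igkc, the kappa light-chain constant region, had a UMI in 96.7% of KO members, at 605 CPM, and in 0 of 187 WT members, where an exact interval allows up to 1.95%. Jchain stood at 45.7 CPM in KO members and at 0 UMIs in WT members. Ighm, the heavy chain of IgM, was present in both, with 56 UMIs in KO and 98 in WT members, a log2 ratio of 0.33 (-0.17 to 0.82). Of 13 B and plasma cell markers, 0 were at 0 UMIs in KO members and 8 were in WT members. B cells with at least 5 UMIs of Cd79a numbered 3304 in the KO library and 9 in the WT library. The part of this background in other ratios was not tested.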

How the data were processed

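The authors deposited raw counts of UMIs, whole numbers for each of 33696 genes and each barcode. Cell Ranger 6.0.1, Seurat 4.0.3 and 4.0.4 and mm10 are listed per the submitters' processing notes, and Cell Ranger 8.0.1 stands in the matrices per the file headers. The sources used here state neither the strand setting nor the handling of multi-mapped reads, which makes overlapping and near-identical genes uncertain.

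The rule of the opening was applied to raw UMIs, without doublet removal. UMIs of a gene were summed over a class and divided by its total, giving CPM. Intervals are exact Poisson for levels, Clopper-Pearson for shares and exact conditional binomial for ratios, and cover counting error only. Ratios of shares have normal-approximation intervals. A side with 0 UMIs took a floor of 3 UMIs. The ratio step was tested on simulated Poisson counts, the model its interval assumes. That test cannot show how the interval behaves where 1 cell holds most UMIs of a gene. No test was made, as each genotype is a single library. Named genes are the 12 per direction whose interval bound nearest 0 lies farthest from 0, the 10 per direction against each neighbouring class, and list members, of which a few are not reported here. Members and lists were chosen with earlier results of these data known. Python 3.11.15, numpy 2.4.6, scipy 1.17.1, pandas 2.3.3 and, for Scrublet, scanpy 1.11.5 were used.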

Additional observations from a re-analysis of the deposited data

Results flagged for a closer look

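For 5 genes the KO over WT ratio was past 2-fold one way in NK-receptor T cells and past 2-fold the other way in another class of the same libraries, with intervals on opposite sides of 0. T-cell receptor genes were left out of this search. With 1 library per genotype the difference between ratios was not tested, and the classes share their libraries.

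The ratio of Inpp4b was -1.41 (-1.88 to -0.96) in NK-receptor T cells and 1.56 (1.38 to 1.74) in receptor-negative T cells. Of these 5 genes it had UMIs in the most members, 15 KO and 88 WT cells. Col3a1 gave -2.47 in NK-receptor T cells and 1.39 in receptor-negative T cells, with 36 of 49 WT UMIs in 1 member. Gzmf gave 5.79 in NK-receptor T cells and -4.05 in CD8 T cells, and Gzmd gave 7.05 and -4.07 in the same classes, each with nearly all KO UMIs in 1 member. Areg gave 2.41 in NK-receptor T cells and -2.02 in CD8 T cells, with 17 of 24 KO UMIs in 1 member.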

How the results depend on the processing

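The alternatives changed the rule, the set of members, the scaling or the filter on low genes. No paired analysis was possible because each genotype is 1 library. Leaving out replicates was not possible for the same reason. The log2 ratio of the share among kept cells stayed below 0 throughout, from -1.69 to -0.67, and reached -0.67 with Lyz2 at 0 (62 KO and 76 WT cells). Dusp2 stayed between -8.35 and -5.89. Counts of genes at least 2-fold higher and lower in KO members were 38 and 394 where cells were gated after thinning to 2000 UMIs, 10 and 59 under a filter of 50 UMIs and 50 CPM, and 1228 and 1083 with no filter beyond 1 UMI in each library, where low genes pass.

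Of 1509 recomputed ratios of single genes and lists, 125 took the other sign. In 107 of these the value with all members was not clear of 0 (a gene's interval included it, or a list's median was under 0.5 in size), and the other 18 were clear of 0. Among these 18 were, after thinning, Gzmb at 0.42, Hspa1b at -0.20, Col3a1 at 0.50, Bst2 at 0.0136, Mki67 at -0.57, Cd3g at 0.0024, Car2 at -0.0177 and Egln3 at -0.35. With a receptor sum of at least 3 they were Areg at -0.65 and Hspa1b at -0.42, and with Lyz2 at 0 Ifitm3 at 0.29 and Lyn at 0.0231. In members without a Trdc UMI they were Spp1 at -0.0631, Serpine2 at -1.32 and Trgc2 at -1.13, and in members without a Mki67 or Top2a UMI Trgc2 at -0.11 and Hmgb2 at -0.0659. Without any term on Cd79a and Lyz2 Col3a1 was at 0.14. That alternative and the one without the top cell of a gene were chosen after seeing the data. For all of these the cause was not tested. With 91 KO members, a gene of 20 UMIs has a wide interval, and no value has a replicate check.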
